A study of Homo sapiens with 4 samples.

Results

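The genes described here encode the cytosolic chaperones and co-chaperones in cells whose label is MHCC97-H, the name of a human liver cancer (hepatocellular carcinoma) line. They comprise 45 genes of the HSP70, HSP110, HSP90, small heat shock protein, J-domain, BAG, heat shock factor and TRiC/CCT families, together with the co-chaperones of HSP90. They were chosen by symbol from the 58735 gene identifiers of the deposited count table. The symbol HSPA14 belongs to 2 identifiers in GENCODE release 29, and the one that current gene names still call HSPA14 was used. All 45 passed the filter on low counts. RNA sequencing libraries were made from wild-type cells exposed to clofazimine, a riminophenazine antibiotic, for 16 h (2 libraries) and from wild-type cells without treatment (2 libraries). The sample labels give the dose as 40 uM and the series description gives 30 uM. The labels name no vehicle for the untreated cells and do not tell if the replicates were grown apart. The p-values therefore cover the spread of these libraries alone, part or all of which may be technical.

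Cytosolic chaperones bind unfolded stretches of other proteins and release them in cycles driven by ATP. J-domain proteins deliver clients to HSP70 and stimulate its ATPase, HSP110 and BAG proteins exchange its nucleotide, HSP90 finishes the folding of kinases and steroid receptors with the help of co-chaperones, and the TRiC/CCT ring folds actin and tubulin. The heat shock response raises many of these genes at once. Its regulator HSF1 is held inactive by chaperones, is released when unfolded proteins occupy them, and then binds heat shock elements, inverted repeats of the unit nGAAn in promoters.

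Total counts lay between 13543437 and 16318759 in the clofazimine libraries and between 16429147 and 16860578 in the untreated ones. Levels are given as CPM, a count scaled to a common library size after TMM (trimmed mean of M values) scaling. A gene with 0 counts could have had up to 3 counts, which was 0.170 to 0.233 CPM depending on the library (counting error only). Of 12 marker genes of hepatocytes and liver cancer, 3 had at least 10 counts in every library, the keratins KRT8 and KRT18 and the protease inhibitor SERPINA1. The defining liver genes ALB, AFP, TTR, APOB and FGB had 0 counts in all 4 libraries, so the liver label was not borne out by these markers. The 12 markers summed to 1759 and 1996 CPM in the clofazimine libraries, against 1618 and 1888 CPM in the untreated ones, nearly all of it keratin. Below that sum, SERPINA1 was 4.42-fold lower with clofazimine and KRT18 was 1.28-fold higher, while KRT8 did not pass the test (-0.03 ± 0.14). The liver transcription factor HNF4A was 9.01-fold lower, an imprecise value near the floor. It had 1 and 9 counts in the clofazimine libraries, against 49 and 65 in the untreated ones. Of 9 markers of other cell types, 3 had at least 10 counts in every library, with PTPRC and LYVE1 at 0. They summed to 150 and 129 CPM in the clofazimine libraries, against 127 and 135 CPM in the untreated ones, most of it the collagen gene COL1A1, which was 1.36-fold higher with clofazimine. The endothelial genes PECAM1 and CDH5 were 5.19-fold and 3.29-fold lower, and the stromal genes COL3A1 and DCN 5.46-fold and 2.43-fold lower. COL3A1 had only 4 and 4 counts in the clofazimine libraries, against 25 and 31 in the untreated ones. The part of these markers in the results was not tested.

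Of the 45 chaperone genes, 34 were higher with clofazimine, 3 were lower and 8 did not pass the test (quasi-likelihood test of edgeR, with p-values adjusted by Benjamini-Hochberg over 16388 genes and a threshold of 0.05). Among all genes tested 29.5% were higher and 30.4% lower, 59.9% in either direction. The members were 75.6% higher and 6.67% lower. The median log2 fold change was 0.53 over the 45 genes and -0.03 over all genes. Because 44 of the 45 averaged at least 10 CPM, the 9930 genes above that level give a second background, with 36.9% higher and 26.7% lower. At least 2-fold increases were called in 11 members, against 10.5% of all genes, and at least 2-fold decreases in 1, against 15.9%. The values of the 2 groups did not overlap for 42 of the 45 members and for 80.8% of all genes. In bulk RNA, a different number of cells that express a gene and a different amount of RNA per cell cannot be told apart.

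**Figure D1:**
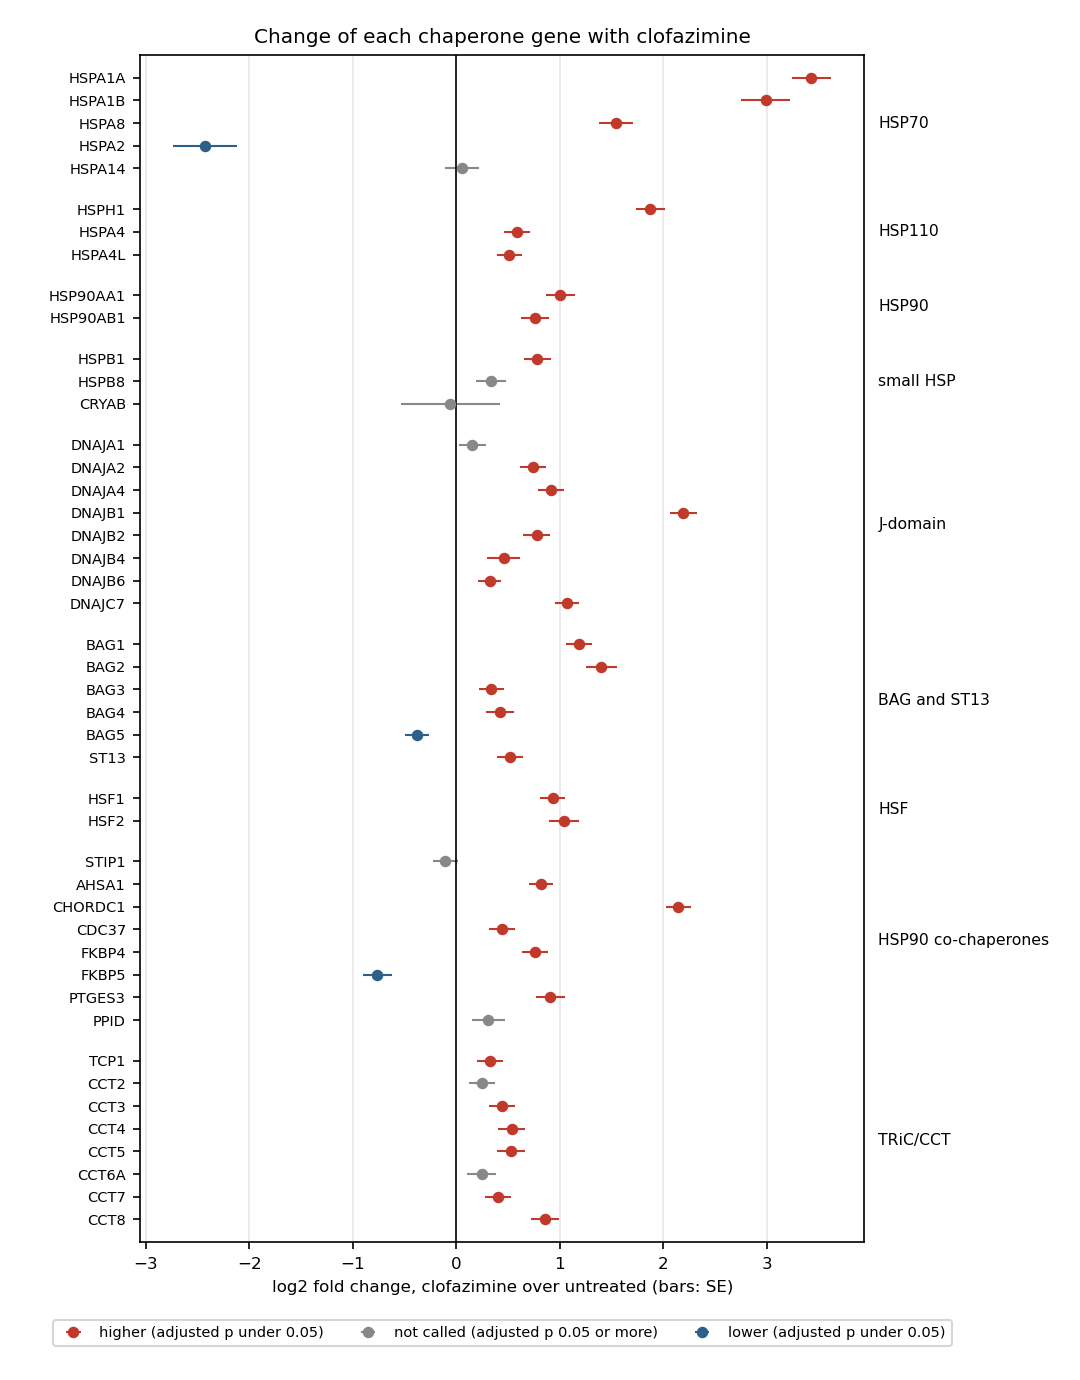
The log2 fold change of each gene, clofazimine over untreated, is plotted with its standard error (bars), grouped by family. The largest increases were those of HSPA1A and HSPA1B (3.43 and 2.99), and the points left of 0 that passed the test are HSPA2, BAG5 and FKBP5.

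With library totals in place of TMM scaling, all fold changes shifted by a median of -0.17 on the log2 scale. The called genes of the whole table were then 37.4% higher, in place of 49.2%. Among the members 26 were then higher and 3 lower, and the calls that ended were those of DNAJB4, DNAJB6, BAG3, BAG4, CDC37, TCP1, CCT3 and CCT7. Of the 34 members called higher, 25 passed the test under all 12 alternative settings.

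Heat shock elements were looked for in the promoters of the members. These families include known heat shock genes, so their share of elements beside all genes is no test of the change with clofazimine. RefSeq windows of 300 bases (GRCh38.p14), from 250 bases before to 50 after an annotated gene start, were at hand for 38 of the 45 genes. Distances are from that RefSeq start, which can differ from the ends of the GENCODE gene positions given in this text. The stretches of CHORDC1, HSPA8, HSP90AA1, HSP90AB1 and DNAJB1 printed below lie inside the GENCODE positions of these genes. A 3-unit element, GAANNTTCNNGAA or its reverse complement TTCNNGAANNTTC, occurred in windows of 6 of these 38 genes (15.8%), against 166 of 27305 genes (0.608%). The 6 were HSPA8, HSP90AA1, HSP90AB1, CHORDC1 and DNAJB6, all called higher, and DNAJA1, which did not pass the test and whose match starts 3 bases after the gene start. Of the 11 members with increases of at least 2-fold, 3 had such a match. Every 3-unit match contains both shorter pairs, GAANNTTC and TTCNNGAA, each its own reverse complement. The pair GAANNTTC occurred in 15 of the 38 (39.5%), against 8.21% of genes, and the pair TTCNNGAA in 10 (26.3%), against 9.46%. Of the 15, 12 were called higher and 3 did not pass the test (CCT2, DNAJA1 and HSPB8). Of the 10, 8 were called higher and 2 did not pass. Of all 45 members 75.6% were higher. A match is a description of letters, not evidence of bound HSF1, and genes with several annotated starts have several windows.

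The stretches below carry such matches in the main stress-inducible and constitutive HSP70 genes, both HSP90 genes, DNAJB1 and CHORDC1. They show how the units are arranged. All of these genes were called higher, and matches in genes that did not pass the test are not printed. Also not printed are the matches in DNAJB6, BAG2, DNAJA4, HSPB1, TCP1, DNAJB4, HSPA4L and CCT4, which were called higher too. The printed stretches are read 5′ to 3′ on the strand of the gene. The GAA and TTC units of the 3-unit match are in capitals, or those of the pair GAANNTTC where there is no 3-unit match. The HSP90AA1 stretch ends with a further pair, TTCNNGAA, left in lower case. The HSPA1A stretch is chr6:31815422-31815459 and the HSPA1B stretch chr6:31827618-31827655, both on the plus strand. These 38-base stretches of neighbouring genes differ by 1 base. The HSPA8 stretch, the nearer of 2 to the gene start, is chr11:123062164-123062206 and the CHORDC1 stretch chr11:90223072-90223124, both on the minus strand. CHORDC1 has 5 alternating units in a row, so that its 3 matches overlap. The HSP90AA1 stretch is chr14:102087105-102087147 and the DNAJB1 stretch chr19:14518422-14518489, both on the minus strand. The HSP90AB1 stretch, with 2 separate elements, is chr6:44247763-44247858 on the plus strand.
HSPA1A: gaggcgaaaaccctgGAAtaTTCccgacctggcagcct
HSPA1B: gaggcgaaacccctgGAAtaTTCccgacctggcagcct
DNAJB1: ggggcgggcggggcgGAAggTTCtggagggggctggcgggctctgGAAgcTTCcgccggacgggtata
CHORDC1: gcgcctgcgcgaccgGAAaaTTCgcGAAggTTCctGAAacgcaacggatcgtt
HSPA8: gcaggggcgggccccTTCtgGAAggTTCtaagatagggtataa
HSP90AA1: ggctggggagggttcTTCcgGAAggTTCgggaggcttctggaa
HSP90AB1: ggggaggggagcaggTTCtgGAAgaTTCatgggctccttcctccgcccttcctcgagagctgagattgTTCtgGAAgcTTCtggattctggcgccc

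**Figure D2:**
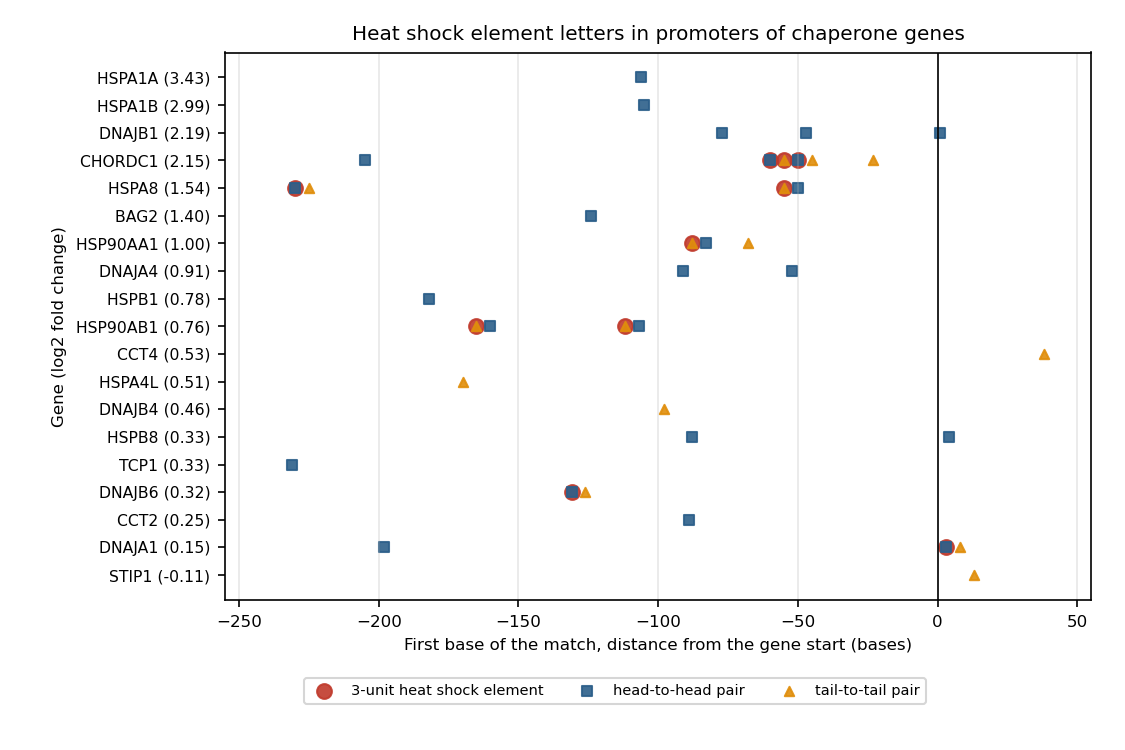
Each point is a match to heat shock element letters, placed by the distance of its first base from the RefSeq gene start. The chaperone genes with a match are ordered by log2 fold change (in parentheses). The 3-unit elements of CHORDC1 start 60 to 50 bases before the RefSeq start. The nearer one of HSPA8 starts 55 bases before it, while that of DNAJA1 lies after the start.

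The mRNAs of HSF1 and HSF2, the heat shock factors among the members, were higher. HSF4, which is not a member, did not pass the test (-0.15 ± 0.15). The activity of these factors was not measured. HSF1 (ENSG00000185122) had 280 and 270 CPM in the clofazimine libraries, against 147 and 141 CPM in the untreated ones. Its log2 fold change was 0.93 ± 0.12 (SE; edgeR adjusted p = 7.18e-06). HSF2, a related factor that can form mixed trimers with HSF1, had 37.3 and 39.9 CPM in the clofazimine libraries, against 20.8 and 16.8 CPM in the untreated ones, a log2 fold change of 1.04 ± 0.15 (edgeR adjusted p = 1.53e-05). For both genes every clofazimine library lay above every untreated library. HSF1 shares exon sequence with DGAT1, which runs the other way and was at 0.20 ± 0.13. No source used here tells if the counting used strand, so reads of such partners may not be told apart.

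The HSP70 genes divided. HSPA1A (ENSG00000204389, chromosome 6, 31815464 to 31817946 on GRCh38, as are all gene positions given here), the main stress-inducible HSP70, had 463 and 516 CPM in the clofazimine libraries, against 34.1 and 56.7 CPM in the untreated ones. Its neighbour HSPA1B (ENSG00000204388, 31827735 to 31830255), which encodes a near-identical protein, had 313 and 345 CPM in the clofazimine libraries, against 26.0 and 56.9 CPM in the untreated ones. Reads of these copies may have been assigned to either gene, so their counts were also summed. The pair then had 776 and 861 CPM in the clofazimine libraries, against 60.02 and 114 CPM in the untreated ones, a 9.42-fold increase (log2 fold change 3.24 ± 0.22, edgeR adjusted p = 4.36e-09). HSPA8 (ENSG00000109971, chromosome 11, 123057489 to 123063230), the constitutive HSP70, had 1252 and 1299 CPM in the clofazimine libraries, against 352 and 525 CPM in the untreated ones. It rose by 1.54 ± 0.17 on the log2 scale (2.91-fold, edgeR adjusted p = 1.03e-06).

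HSPA2 (ENSG00000126803, chromosome 14, 64535905 to 64546173), an HSP70 best known from the testis, went the other way. It had 3.19 and 4.33 CPM in the clofazimine libraries, against 12.5 and 28.2 CPM in the untreated ones, a log2 fold change of -2.43 ± 0.31 (5.37-fold lower, edgeR adjusted p = 5.87e-06). It was the lowest fold change among the 45 genes. HSPA14, a ribosome-associated HSP70, had 13.2 and 14.6 CPM in the clofazimine libraries and 13.2 and 13.6 CPM in the untreated ones, and its groups overlapped (log2 fold change 0.05 ± 0.16, edgeR adjusted p = 0.799). The second identifier with that symbol was at 0.02 ± 0.14.

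The untreated replicates differed most in the same family. Replicate 2 stood above replicate 1 by 2.26 times for HSPA2, 2.19 times for HSPA1B, 1.67 times for HSPA1A and 1.49 times for HSPA8. Over the 45 genes the median ratio of untreated replicate 2 to 1 was 1.01, and over all genes tested it was 0.998. Between the clofazimine libraries replicate 2 was higher for 38 of the 45 genes, with a median ratio of 1.10, against 1.01 over all genes tested. In the clofazimine libraries HSPA1A, HSPA1B and HSPA8 differed by 1.11, 1.10 and 1.04 times between replicates. Over the 12 alternative settings, which include leaving out each library, HSPA1A ranged from 3.09 to 3.83, HSPA1B from 2.51 to 3.65, HSPA8 from 1.26 to 1.84 and HSPA2 from -2.92 to -1.74 on the log2 scale, and each call was kept. For HSPA1A, HSPA1B and HSPA8 both clofazimine values lay above both untreated values, and for HSPA2 both lay below.

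Per unit of length, the makeup of the HSP70 pool differed between groups. Levels were set per length as TPM (counts divided by union exon length and scaled to the same total in every library). HSPA1A and HSPA1B together made up 54.1% and 55.7% of the summed TPM of the 5 HSP70 genes in the clofazimine libraries, against 23.2% and 27.7% in the untreated ones. HSPA8 made up 44.95% and 43.3% in the clofazimine libraries, against 69.9% and 66.1% in the untreated ones. The 5 genes summed to 2064 and 2114 TPM in the clofazimine libraries, against 436 and 672 TPM in the untreated ones. These shares do not depend on how libraries were scaled to each other.

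**Figure D3:**
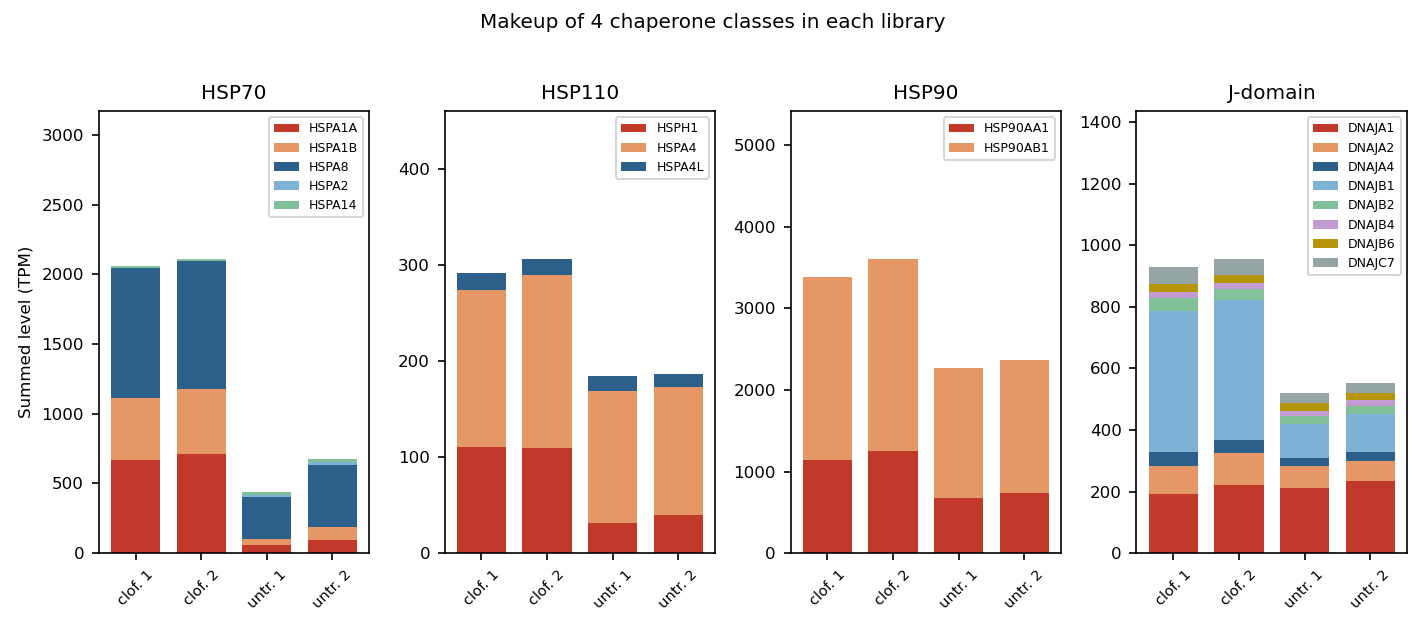
Stacked bars give the summed level (TPM) of the genes of 4 families in each library, clofazimine replicates on the left (clof.) and untreated replicates on the right (untr.). The HSP70 bars of the clofazimine libraries reach 2064 and 2114 TPM, against 436 and 672 TPM, and DNAJB1 makes up 49.2% and 47.5% of the J-domain bars with clofazimine, against 21.4% and 22.7% without.

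All 3 HSP110 genes, which exchange the nucleotide of HSP70 and help to pull aggregates apart, were higher. HSPH1 (ENSG00000120694, chromosome 13, 31134974 to 31162388) had 258 and 269 CPM in the clofazimine libraries, against 62.2 and 81.5 CPM in the untreated ones, a 3.67-fold increase (log2 fold change 1.87 ± 0.14, edgeR adjusted p = 1.41e-08). HSPA4 had 234 and 272 CPM in the clofazimine libraries, against 169 and 167 CPM in the untreated ones (log2 fold change 0.59 ± 0.13, edgeR adjusted p = 7.14e-04). HSPA4L was at 0.51 ± 0.12, and its call ended without untreated replicate 2 (0.43). HSPH1 made up 38.0% and 35.7% of the summed HSP110 TPM with clofazimine, against 16.9% and 21.4% without. HSPA4 and HSPA4L moved less, at 1.504-fold and 1.43-fold.

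Both HSP90 genes were higher, and they had the highest CPM of the members. In TPM, which allows for length, HSP90AB1 was the highest in every library, while HSP90AA1 lay below HSPB1 in both untreated libraries (679 and 738 TPM, against 766 and 843 TPM). HSP90AA1 (ENSG00000080824, chromosome 14, 102080738 to 102139699), the inducible form, had 1675 and 1915 CPM in the clofazimine libraries, against 848 and 943 CPM in the untreated ones (log2 fold change 1.00 ± 0.14, edgeR adjusted p = 1.57e-05). HSP90AB1 (ENSG00000096384, chromosome 6, 44246166 to 44253888), the constitutive form, had 1858 and 2064 CPM in the clofazimine libraries, against 1128 and 1188 CPM in the untreated ones (log2 fold change 0.76 ± 0.14, edgeR adjusted p = 1.82e-04). Neither gene's groups overlapped. HSP90AA1 made up 33.9% and 34.5% of the pair's TPM with clofazimine, against 29.9% and 31.1% without, so that HSP90AB1 was the larger part in every library. Pseudogenes named after these 2 genes held at most 0.366% as many counts as the gene in any library.

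Of the 3 small heat shock proteins, ATP-independent holdases, 1 passed the test. HSPB1, known as HSP27, had 511 and 578 CPM in the clofazimine libraries, against 298 and 336 CPM in the untreated ones (log2 fold change 0.78 ± 0.13, edgeR adjusted p = 9.84e-05). HSPB8, the partner of BAG3 in selective autophagy, had 34.9 and 35.9 CPM in the clofazimine libraries, against 24.2 and 32.0 CPM in the untreated ones, and missed the threshold at 0.33 ± 0.15 (edgeR adjusted p = 0.0595). That gene passed with the replicate block, without untreated replicate 2 and with the length and GC offset. CRYAB, alpha B-crystallin, had only 11 and 12 counts in the clofazimine libraries and 16 and 14 in the untreated ones. Its groups overlapped, and its fold change had the widest error of the 45 (-0.06 ± 0.47), so that a small change was not detectable at this depth.

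Of the 8 J-domain genes, 7 were higher and DNAJA1 did not pass the test. DNAJB1 (ENSG00000132002, chromosome 19, 14514770 to 14529770), the HSP40 that works with HSP70 in stress, had 467 and 489 CPM in the clofazimine libraries, against 96.9 and 112 CPM in the untreated ones, a 4.58-fold increase (log2 fold change 2.19 ± 0.13, edgeR adjusted p = 1.49e-09). DNAJC7, which also binds HSP90, had 138 and 150 CPM in the clofazimine libraries, against 70.1 and 67.3 CPM in the untreated ones (log2 fold change 1.07 ± 0.12, edgeR adjusted p = 1.29e-06). Both genes share exon sequence with genes on the opposite strand, TECR for DNAJB1 (0.42 ± 0.12) and CNP and NKIRAS2 for DNAJC7 (-0.26 ± 0.12 and 0.33 ± 0.12). DNAJA4, DNAJB2 and DNAJA2 followed at 0.91, 0.78 and 0.74, and each kept its call under all 12 alternatives. DNAJA1, a partner of HSPA8, had 147 and 177 CPM in the clofazimine libraries, against 136 and 155 CPM in the untreated ones, with overlapping groups (0.15 ± 0.13, edgeR adjusted p = 0.316). It passed without clofazimine replicate 1, at 0.30.

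The calls of 2 J-domain genes were less steady. DNAJB4, an HSP40 related to DNAJB1, was at 0.46 ± 0.16 (edgeR adjusted p = 0.0196), and 6 of 12 alternatives ended the call, among them leaving out clofazimine replicate 2 (0.35) or untreated replicate 1 (0.34). The offset for exon length and GC content brought it to -0.04. DNAJB6, which suppresses aggregation of polyglutamine proteins, was at 0.32 ± 0.11 and ranged from 0.15 to 0.89 over the alternatives, the highest with that offset. Its call ended without untreated replicate 1 (0.30) and without untreated replicate 2 (0.30). DNAJB1 made up 49.2% and 47.5% of the summed J-domain TPM with clofazimine, against 21.4% and 22.7% without, and DNAJA1 made up 20.8% and 23.2% with clofazimine, against 40.5% and 42.3% without. DNAJB1 was thus the most abundant of the 8 in the clofazimine libraries, and DNAJA1 in the untreated ones.

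Among the BAG family, which bind the ATPase domain of HSP70 and release its nucleotide, 4 genes were higher and 1 lower. BAG2, which inhibits the ubiquitin ligase CHIP, had 66.9 and 90.8 CPM in the clofazimine libraries, against 32.4 and 27.4 CPM in the untreated ones, a log2 fold change of 1.40 ± 0.15 (edgeR adjusted p = 8.31e-07). BAG1, which links HSP70 to the proteasome, had 354 and 383 CPM in the clofazimine libraries, against 159 and 164 CPM in the untreated ones (1.19 ± 0.12, edgeR adjusted p = 7.12e-07). BAG5 had 72.6 and 77.5 CPM in the clofazimine libraries, against 102 and 93.6 CPM in the untreated ones, and was lower at -0.38 ± 0.12 (edgeR adjusted p = 0.0107), a call that ended without untreated replicate 1 (-0.34). BAG2, BAG4 and BAG5 share exon sequence with genes on the opposite strand. The opposite genes RAB23, LSM1 and KLC1 were at 0.26 ± 0.14, 0.46 ± 0.18 and -0.08 ± 0.11, and ZNF451-AS1, which also overlaps BAG2, at 2.58 ± 0.26.

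BAG3 is the BAG gene best known as a heat shock gene, and it takes clients to autophagy. It had 79.6 and 70.1 CPM in the clofazimine libraries, against 58.8 and 59.5 CPM in the untreated ones, a 1.26-fold increase (log2 fold change 0.34 ± 0.12, edgeR adjusted p = 0.0217). Its call ended under 5 of 12 alternatives, among them leaving out clofazimine replicate 1 (0.27), untreated replicate 1 (0.31) or untreated replicate 2 (0.33), and library totals (0.17). BAG4, known as a silencer of death domains, was at 0.42 ± 0.14 and lost its call under 6 of 12, among them leaving out clofazimine replicate 2 (0.29), untreated replicate 1 (0.41) or untreated replicate 2 (0.39). ST13, the HSP70-interacting protein that stabilises the ADP-bound state, had 275 and 321 CPM in the clofazimine libraries, against 207 and 209 CPM in the untreated ones (0.52 ± 0.13, edgeR adjusted p = 0.00217). BAG3 made up 26.3% and 21.9% of the BAG TPM with clofazimine, against 28.9% and 29.8% without.

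The co-chaperones of HSP90 varied, with 5 of 8 higher, 1 lower and 2 not called. CHORDC1 (ENSG00000110172, chromosome 11, 90201160 to 90223364), also called morgana, had 181 and 185 CPM in the clofazimine libraries, against 41.9 and 40.9 CPM in the untreated ones. Its 4.43-fold increase (log2 fold change 2.15 ± 0.12, edgeR adjusted p = 6.00e-10) stood beside 4.58-fold for DNAJB1. PTGES3, or p23, which stabilises closed HSP90, had 473 and 608 CPM in the clofazimine libraries, against 289 and 288 CPM in the untreated ones (0.91 ± 0.14, edgeR adjusted p = 4.19e-05). AHSA1, which activates the HSP90 ATPase, was at 0.82 ± 0.12, and CDC37, which brings kinases to HSP90, at 0.44 ± 0.12. The CDC37 call ended without untreated replicate 1 (0.35).

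The immunophilins FKBP4 and FKBP5, which compete for HSP90 in steroid receptor complexes, moved in opposite directions. FKBP4 had 292 and 300 CPM in the clofazimine libraries, against 165 and 184 CPM in the untreated ones, a log2 fold change of 0.76 ± 0.12 (edgeR adjusted p = 6.59e-05). FKBP5 (ENSG00000096060, chromosome 6, 35573585 to 35728583), itself a target of the glucocorticoid receptor, had 26.0 and 24.0 CPM in the clofazimine libraries, against 46.0 and 38.8 CPM in the untreated ones, a log2 fold change of -0.76 ± 0.14 (1.70-fold lower, edgeR adjusted p = 1.77e-04). Neither gene's groups overlapped, and both calls held under all 12 alternatives. PPID, cyclophilin 40, was at 0.31 ± 0.16 (edgeR adjusted p = 0.106). STIP1, or HOP, which passes clients from HSP70 to HSP90, had 184 and 185 CPM in the clofazimine libraries, against 188 and 210 CPM in the untreated ones (-0.11 ± 0.12, edgeR adjusted p = 0.454). It ranged from -0.27 to 0.16 over the alternatives.

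**Figure D4:**
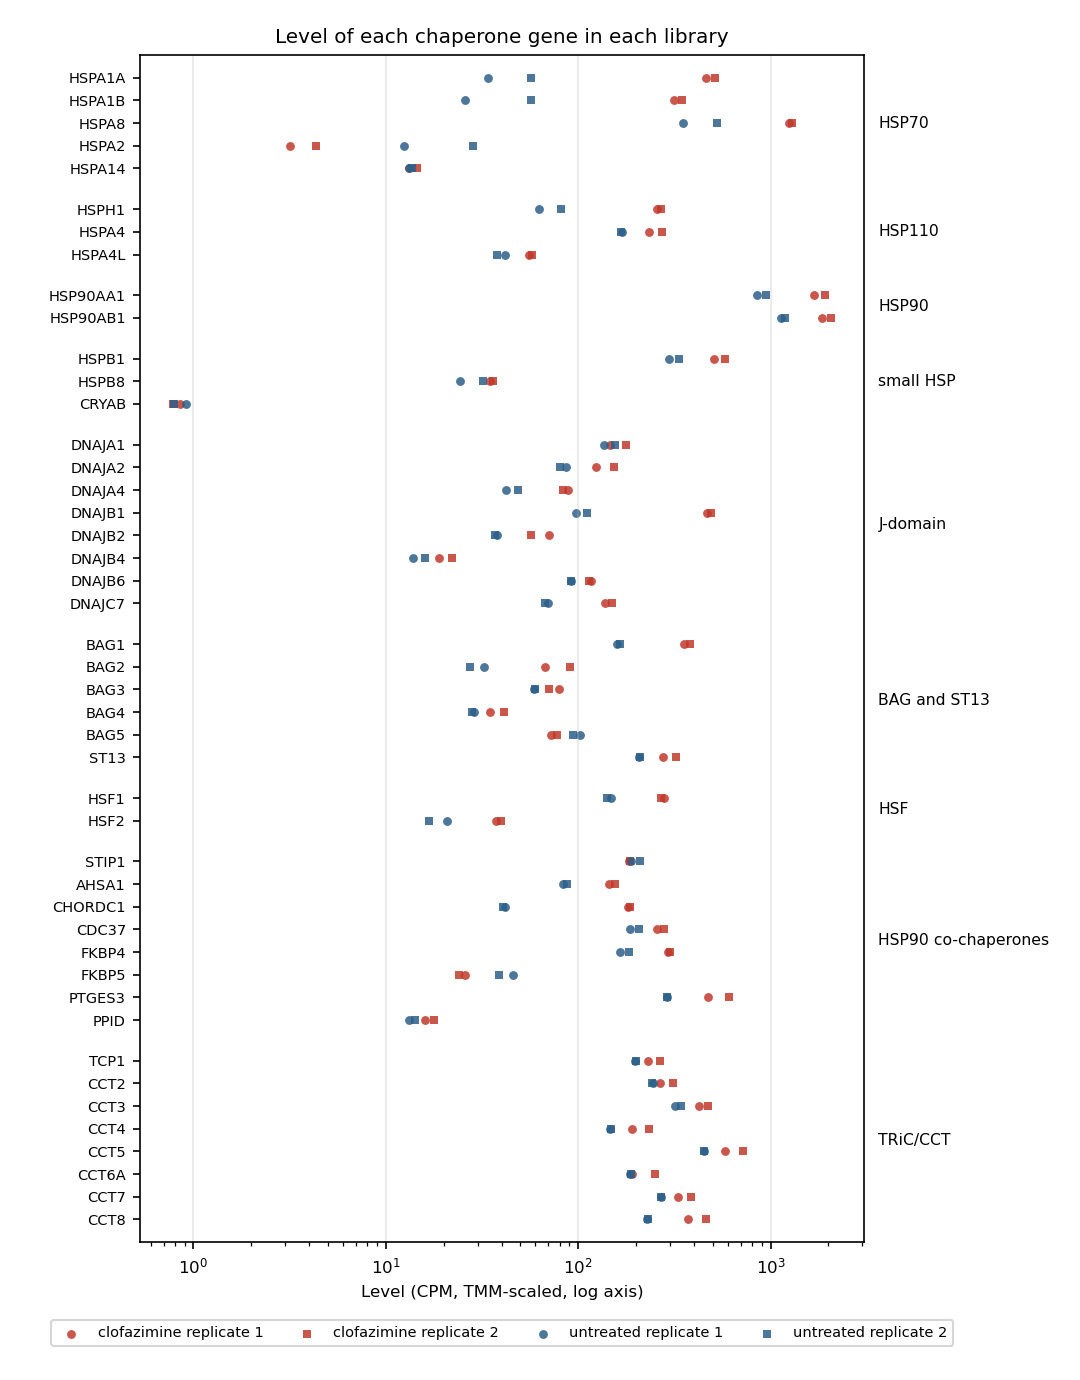
The level of each gene in each library is plotted in CPM on a log axis, clofazimine in red and untreated in blue, with circles for replicate 1 and squares for replicate 2. The red points lie right of the blue ones in most rows, most widely for HSPA1A, HSPA1B, DNAJB1 and CHORDC1, and left of them for HSPA2, BAG5 and FKBP5 and for STIP1, which did not pass the test.

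The 8 subunits of the TRiC/CCT ring had log2 fold changes from 0.24 to 0.86, with a median of 0.42. Of these 6 were higher and CCT2 and CCT6A did not pass the test. CCT8 (ENSG00000156261, chromosome 21, 29055805 to 29073797) had 371 and 462 CPM in the clofazimine libraries, against 228 and 231 CPM in the untreated ones, a log2 fold change of 0.86 ± 0.14 (edgeR adjusted p = 4.71e-05). CCT4 and CCT5 were both at 0.53. TCP1, CCT3 and CCT7 were at 0.33, 0.44 and 0.40, and each lost its call under library totals and without either untreated replicate. Without untreated replicate 1 they were at 0.30, 0.37 and 0.38, and without untreated replicate 2 at 0.31, 0.47 and 0.39. TCP1 also lost its call without clofazimine replicate 2 (0.24) and with no filter on low counts (0.33). CCT2 was at 0.25 ± 0.13 (edgeR adjusted p = 0.106) and CCT6A at 0.24 ± 0.14 (edgeR adjusted p = 0.134), and both passed without clofazimine replicate 1 (0.38 and 0.45).

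The subunits stand in equal numbers in the ring. Their mRNA levels per union exon length differed, but which subunit was highest or lowest depended on that length. In CPM, CCT4 was the lowest in every library (190 and 234 with clofazimine, 146 and 148 without). CCT5 was the highest (583 and 715 with clofazimine, 451 and 450 without). In the clofazimine libraries they lay between 169 TPM (TCP1) and 399 TPM (CCT8) in replicate 1, and between 184 and 473 TPM for the same genes in replicate 2. In the untreated libraries they lay between 169 TPM (TCP1) and 335 TPM (CCT3) in replicate 1, and between 165 and 349 TPM for the same genes in replicate 2. The coefficient of variation across the 8 subunits was 32.7% and 32.4% with clofazimine, against 24.2% and 25.3% without. The ring summed to 2273 and 2595 TPM with clofazimine, against 2089 and 2063 TPM without. TPM values carry no TMM scaling. The groups of CCT2 and CCT6A overlap on that scale, while no subunit's groups overlap in CPM. The groups of 80.8% of all genes tested did not overlap in CPM either.

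Other genes of the chaperone network, 83 in 6 lists, were counted beside the members. Of 78 that passed the filter, 37 were higher (47.4%) and 14 lower. Among all genes tested 29.5% were higher and 30.4% lower, and among those averaging at least 10 CPM 36.9% and 26.7%. The 2 called genes with the largest changes and a mean of at least 5 CPM in each list were HSPA6 and HSPBAP1, DNAJC2 and DNAJC12, SUGT1 and CDC37L1, PFDN2 and PFDN4, SGTB and UBE4B, and RGS2 and HSPE1. HSPA6 (ENSG00000173110, chromosome 1, 161524540 to 161526910), a strictly inducible HSP70, had 26.0 and 30.4 CPM in the clofazimine libraries, against 1.03 and 1.98 CPM in the untreated ones. That was an 18.7-fold increase (log2 fold change 4.22 ± 0.24, edgeR adjusted p = 6.00e-10), above that of every member. DNAJC2, which works with HSPA14 on the ribosome, had 101 and 113 CPM in the clofazimine libraries, against 26.3 and 24.1 CPM in the untreated ones, a 4.26-fold increase.

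Prefoldin hands unfolded actin and tubulin to TRiC/CCT. Its genes were in the list of prefoldin, phosducin-like proteins and tubulin cofactors, with 8 of 14 higher and 2 lower (57.1% higher, against 29.5% of all genes). Of the 6 prefoldin subunits, singled out after their values were seen, 6 were higher. PFDN2 had 202 and 249 CPM in the clofazimine libraries, against 62.5 and 58.6 CPM in the untreated ones (log2 fold change 1.90 ± 0.13, edgeR adjusted p = 7.55e-09). PFDN4 rose by 1.64 ± 0.15, VBP1 by 0.90, PFDN5 by 0.71, PFDN1 by 0.67 and PFDN6 by 0.54. The PFDN6 call ended without clofazimine replicate 2 (0.31), without untreated replicate 1 (0.48) and without a filter (0.54).

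**Figure D5:**
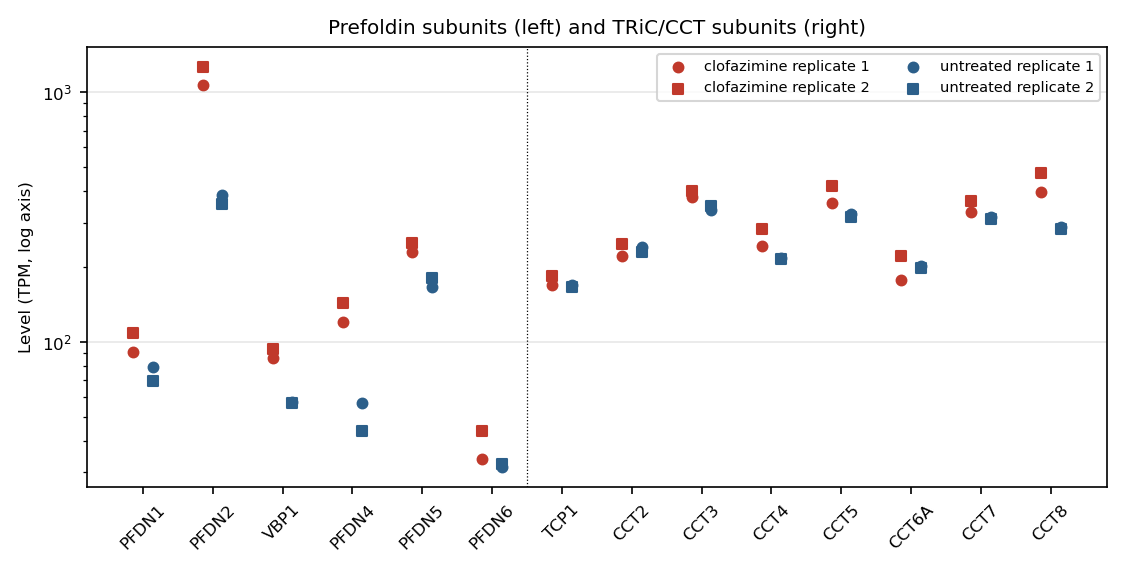
Levels in TPM on a log axis are shown for the 6 prefoldin subunits (left) and the 8 TRiC/CCT subunits (right), clofazimine in red and untreated in blue. PFDN2 and PFDN4 show the widest gaps, while the groups of CCT2 and CCT6A overlap on this scale.

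Among 18 other co-chaperones of HSP90, 7 were higher and 2 lower, with SUGT1, a partner in kinetochore assembly and innate immunity, at 1.19 ± 0.16 and CDC37L1 at 1.05 ± 0.16. The list of 12 genes of chaperone-linked ubiquitin and quality control had 7 higher and 2 lower, with SGTB, a co-chaperone with a tetratricopeptide domain, at 1.37 ± 0.13 and UBE4B, a ubiquitin chain elongation factor, 2.57-fold lower. Other J-domain genes of the cytosol had 5 of 16 higher and 5 lower, and other HSP70 and small heat shock genes 4 of 7 higher and 3 lower. HSF1 targets and partners outside the chaperone families had 6 of 11 higher and 0 lower. Among all genes tested 29.5% were higher and 30.4% lower, 59.9% in either direction. The list of other J-domain genes, with 31.2% higher, lay near that share. Of the HSF1 list 54.5% was called, a smaller share than the 59.9% of all genes. Its share higher was also 54.5%, against 29.5% of all genes. The co-chaperone list was 38.9% higher, near the 36.9% of genes averaging at least 10 CPM. The ubiquitin list was 58.3% higher, and the HSP70 and small heat shock list 57.1%. HSPE1, of the HSF1 list, is the mitochondrial co-chaperonin. It had 61.3 and 68.4 CPM in the clofazimine libraries, against 18.9 and 27.5 CPM in the untreated ones. Its chaperonin HSPD1, on the opposite strand of an overlapping locus, was singled out after its value was seen (1.08 ± 0.14). SERPINH1, CLU, UCHL1 and HSF4 of the same list had negative log2 fold changes (-0.27, -0.23, -0.34 and -0.15) and did not pass the test.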

How the data were processed

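RNA from clofazimine-treated and untreated cells labelled MHCC97-H was sequenced from polyadenylated RNA with an Illumina TruSeq kit, per the labels. The authors deposited raw counts per Ensembl gene for 4 libraries. Per the submitters' processing notes, fastp and GRCh38 were used. The sources used here do not name the aligner, counter, strand setting or annotation release. All 58735 identifiers matched GENCODE 29, which gave symbols, coordinates and union exon lengths. The file's control columns were matched by number to titles with the word Wildtype. The test was edgeR's quasi-likelihood test without a replicate term (version 4.0.16, R 4.3.3). It used filterByExpr at its defaults of 10 counts and 15 in total, TMM factors from 0.936 to 1.07, and Benjamini-Hochberg adjustment over 16388 genes. It was also run on simulated data, in which a far smaller share of genes changed than was called here. That run therefore does not check the test at the share called here. A standard error is the log2 fold change divided by the square root of F. The edgeR coefficient of variation was 9.91%. Replicates differed by more than counting noise (chi-square per degree of freedom 13.2 for clofazimine and 6.51 for untreated). Alternatives were DESeq2 1.42.0 size factors and Wald test, library totals, other filters, limma-voom 3.58.1, a replicate block, leaving out each library, and an offset for exon length and GC content (mgcv 1.9.3). Exons of 14 members overlap an opposite-strand gene with at least 10 counts in a library. All members could be named, and from each other list the 2 called genes with the largest changes and at least 5 CPM. Further genes of the other lists named here were added after their values were seen. Members and lists were chosen with earlier results of these data known.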

Additional observations from a re-analysis of the deposited data

How the results depend on the processing

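The number of members higher was 34 in the main analysis and 26 to 36 over the 12 alternatives, and the number of members lower was 3, or 2 without untreated replicate 1. The median log2 fold change of the members was 0.53, and it moved to 0.37 under library totals and to 0.64 with the offset for exon length and GC content, while without single libraries it lay between 0.49 and 0.69. The number of all genes changed was 9811, and 6920 to 9977 over the alternatives. DNAJB4 changed sign with the exon length and GC offset, at -0.043, and the cause was not tested. Of the 8 members not called, HSPB8, DNAJA1, CCT2 and CCT6A passed under at least 1 alternative. With the replicate block 35 members were higher and 3 lower, and 9605 genes changed. Same-numbered libraries did not deviate together (correlation across genes -0.0582). The labels state no pairing, and with so few libraries a batch shared by same-numbered libraries cannot be told. Summing HSPA1A and HSPA1B kept the call (3.24). Across all genes tested, log2 fold changes fell with exon length (Spearman rho -0.149, across genes, which are not independent replicates). With 2 libraries per group, where a library was left out the lone library was assumed to vary like the others. The lowest member counts were those of CRYAB, 11 to 16.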
